A study of Mus musculus with 8 samples.

Results

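The genes described here were 10 members of the cell division machinery in mouse mammary tumor cells: the D-type cyclins Ccnd1, Ccnd2 and Ccnd3, the E-type cyclins Ccne1 and Ccne2, the A-type cyclin Ccna2, the B-type cyclins Ccnb1 and Ccnb2, and the kinases Cdk4 and Cdk6. They were chosen by name as the cyclins that run the cell cycle and the kinases that the D-type cyclins bind, from the 53697 genes of the count table, and all 10 passed the filter on low counts that left 18322 genes for testing. RNA came from primary tumors of MMTV-PyMT mice, in which a mammary tumor virus promoter drives the polyoma middle T oncogene in the mammary epithelium. In 2 mice a GFP-IRES-Cre-ERT2 cassette was knocked into the Dll1 locus (PyMT-Dll1GFP, here GFP mice), and 2 mice carried a BAC-based mCherry reporter of Dll1 (PyMT-Dll1mCh, here mCh mice). Dll1 is a Notch ligand, and reporter-positive (Dll1+) and reporter-negative (Dll1-) cells were collected after cells with CD45, CD31 or Ter119 had been removed. Each of the 4 mice is represented by a pair of libraries, 1 per sort, 8 in all. No mouse had a treatment in the labels, the ages of the mice were not given in the sources used here, and every library came from cells that carry the oncogene and a reporter allele.

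Cyclins are the regulatory subunits that switch on cyclin-dependent kinases, and each class is made in its own window of the cell cycle. D-type cyclins respond to growth signals and act with CDK4 and CDK6 in G1, where they phosphorylate the retinoblastoma protein and free the E2F factors. E-type cyclins act with CDK2 at the start of S phase, cyclin A2 acts through S phase and G2, and B-type cyclins act with CDK1 to bring the cell into mitosis. Transcripts of the E, A and B classes rise and fall with the cycle, whereas those of the D class and of the kinases follow growth signals more than cycle phase. Cyclin D1 is well known in the breast as a driver of luminal tumors and of mammary gland growth.

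Library totals ranged from 27301396 to 123907626 counts, and the deepest was the Dll1- library of mCh mouse 1. The shallowest value among these genes was 55 counts, for Ccne2 in Dll1+ cells of GFP mouse 1. Values are CPM (counts relative to the library total, after TMM scaling between libraries), and 3 counts corresponded to 0.024 to 0.105 CPM. Dll1 itself was at 7.61 to 50.3 CPM in the Dll1- and 87.5 to 250.2 CPM in the Dll1+ libraries, higher in Dll1+ cells of every mouse. The epithelial marker Epcam was at 899 to 1240 CPM in every library. The CD45 gene Ptprc was at 2.88 to 12.7 CPM and the CD31 gene Pecam1 at 13.7 to 98.2 CPM, so transcripts of cells that the sort was meant to remove were detected in all 8 libraries.

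Per kilobase of exon, the kinase Cdk4 and cyclin D1 gave the highest levels of the group. The median over the 8 libraries was 115.0 CPM per kilobase for Cdk4, 54.2 for Ccnd1 and 29.4 for Ccnd3. Ccnb2 at 14.8, Ccna2 at 11.5, Ccnb1 at 9.54 and Ccne1 at 4.09 CPM per kilobase followed. The lowest levels were those of Cdk6 at 1.98, Ccnd2 at 1.82 and Ccne2 at 1.03 CPM per kilobase. Among neighbours in this order the ranges over the libraries overlapped except for Ccnd1 (47.6 to 69.1) and Ccnd3 (28.2 to 43.9), and the order by the longest coding transcript was the same. Within the D class, Ccnd1 made up 52.9% to 67.8% of the summed level per kilobase, Ccnd3 28.4% to 44.4% and Ccnd2 0.465% to 5.0%.

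The first comparison asked how these genes differed between Dll1+ and Dll1- tumor cells of the same mice. The late cyclins Ccna2, Ccnb1 and Ccnb2 fell to less than 0.4 of their level in Dll1- cells, the E-type cyclins Ccne1 and Ccne2 and the kinase Cdk4 fell as well, and no member rose. In the model with the mouse as a block, 6 of the 10 genes passed an adjusted p of 0.05, all lower in Dll1+ cells, against 7.04% of all tested genes called lower. The median log2 fold change was -0.62 over the 10 genes and -0.001 over all tested genes. In 7 genes (the 6 and Cdk6) the Dll1+ value was below the Dll1- value in 4 of 4 mice, which held for 19.9% of all tested genes. Because these are bulk libraries, fewer cells in a phase and less RNA per cell cannot be told apart.

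**Figure D1:**
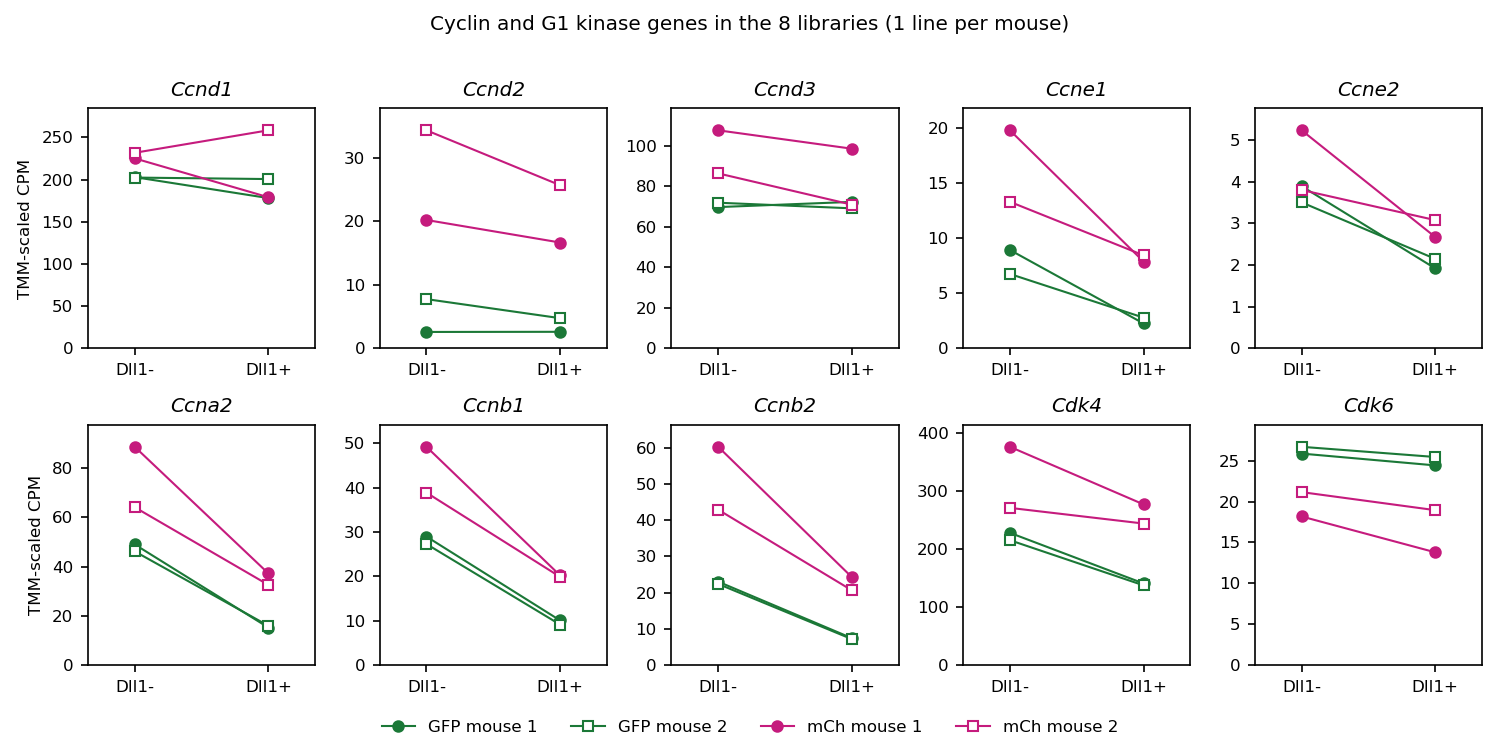
TMM-scaled CPM (linear axis from 0) of each gene in the 8 libraries, with 1 line joining the Dll1- and Dll1+ library of each mouse, green for GFP mice and magenta for mCh mice. All 4 lines of Ccne1, Ccne2, Ccna2, Ccnb1, Ccnb2 and Cdk4 slope down, and the mCh lines of Ccnd2 and Cdk4 lie above the GFP lines while those of Cdk6 lie below them.

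Cyclin A2 (Ccna2, chromosome 3, 36564865 to 36572150 in GRCm38, minus strand), which serves S phase and G2, was at 49.0 and 46.2 CPM in Dll1- cells of GFP mice 1 and 2 and at 88.7 and 64.1 CPM in those of mCh mice 1 and 2. In Dll1+ cells it was at 15.2 and 15.9 CPM in GFP mice and 37.2 and 32.6 CPM in mCh mice. Every Dll1+ library was below every Dll1- library, and in both sorts the mCh libraries were above the GFP libraries. Mean values were 62.0 ± 19.5 CPM in Dll1- and 25.2 ± 11.3 CPM in Dll1+ cells (SD, n = 4). The fitted log2 fold change was -1.36 (SE 0.12, edgeR adjusted p = 0.00633), a 2.56-fold lower level.

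Cyclin B1 (Ccnb1, chromosome 13, 100778650 to 100786570, minus strand), the main mitotic cyclin, was at 29.0 and 27.3 CPM in Dll1- cells of GFP mice and 49.2 and 38.9 CPM in those of mCh mice. In Dll1+ cells it was at 10.04 and 9.10 CPM in GFP mice and 20.2 and 19.9 CPM in mCh mice. The sorts did not overlap here either, with the mCh Dll1+ libraries the closest to the GFP Dll1- libraries. The fitted level was 2.52-fold lower in Dll1+ cells (log2 fold change -1.335, SE 0.12, edgeR adjusted p = 0.00534).

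Cyclin B2 (Ccnb2, chromosome 9, 70407692 to 70421547, minus strand), the second mitotic cyclin, was at 23.0 and 22.4 CPM in Dll1- cells of GFP mice and 60.2 and 42.9 CPM in those of mCh mice. Its Dll1+ values were 7.39 and 7.14 CPM in GFP mice and 24.3 and 20.6 CPM in mCh mice. The sorts overlapped only because the Dll1+ library of mCh mouse 1 was above the Dll1- libraries of the GFP mice; within each mouse the Dll1+ value was lower. It had the largest fitted fall of the 10 genes, 2.65-fold (log2 fold change -1.40, SE 0.12, edgeR adjusted p = 0.00534). Over the 10 genes, Ccne2, Ccna2 and Ccnb1 were the 3 whose 4 Dll1+ libraries all lay below the 4 Dll1- libraries, against 3.33% of all tested genes.

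The promoters of the B-type cyclins are shown because both genes fell together and their sequences hold letters known from G2/M genes. Windows from 250 bases before to 50 bases after the start site were in the RefSeq table (GRCm38.p6) for 6 of the 10 genes, as 7 promoters, and Ccnd1, Ccnd2, Ccne2 and Ccna2 had no entry. Capitals mark CCAAT boxes (CCAAT) and cell cycle homology region (CHR) letters (TTTGAA or TTTAAA), searched on both strands, and positions count from the start site as 0.
Ccnb1 promoter, chr13:100786437-100786736, minus strand: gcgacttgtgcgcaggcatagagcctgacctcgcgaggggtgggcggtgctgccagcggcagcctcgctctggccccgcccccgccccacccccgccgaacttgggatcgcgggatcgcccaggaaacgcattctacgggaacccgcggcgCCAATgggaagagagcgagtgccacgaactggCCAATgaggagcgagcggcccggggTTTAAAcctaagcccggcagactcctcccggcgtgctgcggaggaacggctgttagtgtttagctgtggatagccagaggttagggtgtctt
Ccnb2 promoter, chr9:70421505-70421804, minus strand: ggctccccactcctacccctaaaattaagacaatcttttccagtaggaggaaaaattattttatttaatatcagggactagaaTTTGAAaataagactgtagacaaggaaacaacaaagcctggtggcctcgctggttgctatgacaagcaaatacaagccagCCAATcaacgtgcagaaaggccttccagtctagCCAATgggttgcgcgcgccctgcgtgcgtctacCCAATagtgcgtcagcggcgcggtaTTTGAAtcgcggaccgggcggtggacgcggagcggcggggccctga
The Ccnb1 window held CCAAT at -99 and -67 and TTTAAA at -42. The Ccnb2 window held CCAAT at -87, -54 and -21 and TTTGAA at -167 and at 4. Of all 32851 promoters in the table, 37.4% held a CCAAT, 27.6% a CHR match, and 3.13% at least 2 CCAAT together with a CHR match. The E2F-type letters TTTCCCGC, TTTGGCGC, TTTCGCGC and TTCCCGCC were in none of the 7 windows and in 3.49% of all promoters. A match of letters is a description of the window and not a binding site.

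Cyclin E1 (Ccne1, chromosome 7, 38097984 to 38107534, minus strand), which activates CDK2 at the start of S phase, was at 8.94 and 6.76 CPM in Dll1- cells of GFP mice and at 19.8 and 13.3 CPM in those of mCh mice. In Dll1+ cells it was at 2.27 and 2.80 CPM in GFP mice and 7.89 and 8.46 CPM in mCh mice. The sorts overlapped, with both mCh Dll1+ libraries inside the range of the GFP Dll1- libraries, but the value fell in each mouse. The fitted level was 2.44-fold lower (log2 fold change -1.29, SE 0.21, edgeR adjusted p = 0.0188). Its promoter window held TTTAAA at -15.

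Cyclin E2 (Ccne2, chromosome 4, 11191351 to 11204779, plus strand), its close relative, had the lowest level per length. It was at 3.89, 3.501, 5.23 and 3.80 CPM in Dll1- cells and at 1.92, 2.15, 2.67 and 3.08 CPM in Dll1+ cells, in the order GFP mice 1 and 2 and mCh mice 1 and 2. The sorts did not overlap, and the fall was smallest in mCh mouse 2. The fitted level was 1.68-fold lower (log2 fold change -0.75, SE 0.18, edgeR adjusted p = 0.0467), close to the threshold. The log2 ratio of Ccne1 to Ccne2 CPM was lower in Dll1+ than in Dll1- cells in all 4 mice, by -0.95, -0.57, -0.36 and -0.35 on the log2 scale. A test of that ratio was not run.

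Cdk4 (chromosome 10, 127063534 to 127067920, plus strand), the kinase partner of the D-type cyclins, was at 228 and 215 CPM in Dll1- cells of GFP mice and 376 and 271 CPM in those of mCh mice. In Dll1+ cells it was at 141 and 137 CPM in GFP mice and 277 and 244 CPM in mCh mice. Each mouse had less in its Dll1+ cells, yet both mCh Dll1+ libraries were above both GFP Dll1- libraries. The fitted level was 1.40-fold lower (log2 fold change -0.48, SE 0.10, edgeR adjusted p = 0.0342). The gene overlaps Tspan31 on the opposite strand, which did not pass the test (log2 fold change 0.06, SE 0.06, edgeR adjusted p = 0.559).

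The Cdk4 promoter is shown for the E-box letters CACGTG (capitals), the sequence that MYC and related factors are known to bind, which were searched only after the sequences had been read.
Cdk4 promoter, chr10:127063285-127063584, plus strand: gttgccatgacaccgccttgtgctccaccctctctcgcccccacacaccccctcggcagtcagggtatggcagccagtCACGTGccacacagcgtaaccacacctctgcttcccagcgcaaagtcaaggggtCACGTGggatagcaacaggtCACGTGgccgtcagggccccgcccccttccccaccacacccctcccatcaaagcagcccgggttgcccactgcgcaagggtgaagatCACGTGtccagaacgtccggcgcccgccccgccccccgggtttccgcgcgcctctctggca
The window held CACGTG 4 times, at -172, -118, -98 and -11, and no CCAAT or CHR match. The Cdk6 window held it at -220, and 7.15% of all promoters held it at least 1 time. The other 5 member windows did not hold these letters.

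Cdk6 (chromosome 5, 3341485 to 3531008, plus strand), the second D-cyclin kinase, moved little. It was at 25.9, 26.7, 18.2 and 21.2 CPM in Dll1- cells and 24.4, 25.5, 13.8 and 19.0 CPM in Dll1+ cells, in the same order of mice. The value was lower in each Dll1+ library, by 0.07 to 0.40 on the log2 scale, and the sorts overlapped. The fitted log2 fold change of -0.18 (SE 0.08, edgeR adjusted p = 0.184) did not pass, with a 95% interval from -0.37 to 0.02. The log2 ratio of Cdk6 to Cdk4 CPM was higher in Dll1+ cells of the GFP mice, by 0.61 and 0.58, and differed by 0.05 and -0.007 in the mCh mice.

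The D-type cyclins did not pass the test. Cyclin D1 (Ccnd1, chromosome 7, 144929931 to 144939925, minus strand), a transducer of growth signals, was at 203, 202, 225 and 232 CPM in Dll1- cells and 178, 201, 179 and 258 CPM in Dll1+ cells. The sorts overlapped and the direction differed between mice, with 3 lower and mCh mouse 2 higher. Its log2 fold change was -0.09 (SE 0.09, edgeR adjusted p = 0.515), with a 95% interval from -0.32 to 0.13. The log2 ratio of Ccnb1 to Ccnd1 CPM was lower in Dll1+ cells by -1.34 and -1.57 in GFP mice and by -0.95 and -1.12 in mCh mice.

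Cyclin D3 (Ccnd3, chromosome 17, 47505051 to 47599691, plus strand), the other abundant D-type cyclin, was at 69.7, 71.8, 108 and 86.3 CPM in Dll1- cells and 72.2, 69.0, 98.4 and 70.9 CPM in Dll1+ cells. The 4 GFP libraries and the Dll1+ library of mCh mouse 2 lay within 69.0 to 72.2 CPM, and the other mCh libraries lay higher. Its log2 fold change of -0.10 (SE 0.07, edgeR adjusted p = 0.329) had a 95% interval from -0.27 to 0.06. The gene overlaps Bysl on the opposite strand over 361 bases, and Bysl was lower in Dll1+ cells (log2 fold change -0.49, edgeR adjusted p = 0.0187).

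Cyclin D2 (Ccnd2, chromosome 6, 127125162 to 127152193, minus strand), the least abundant of the class, was at 2.59, 7.76, 20.2 and 34.4 CPM in Dll1- cells and 2.62, 4.76, 16.7 and 25.7 CPM in Dll1+ cells. The libraries separated by reporter and not by sort. Its log2 fold change was -0.36 (SE 0.12, edgeR adjusted p = 0.106). The 95% interval, which is not adjusted for the number of genes, ran from -0.67 to -0.06 and left out 0. DESeq2's Wald test on the same model called Ccnd2 lower (adjusted p = 0.0492). Leaving out GFP mouse 1, GFP mouse 2 or mCh mouse 1 reduced the calls from 6 to 3 of the 10 genes. Ccna2, Ccnb1 and Ccnb2 were called each time. Calls over all tested genes fell in the same fits from 2568 to 433, 779 and 405. Without any mouse or reporter term none was called by edgeR (4 at an unadjusted p under 0.05), whereas 5 were called without the mouse but with the reporter, a model added after seeing the data.

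**Figure D2:**
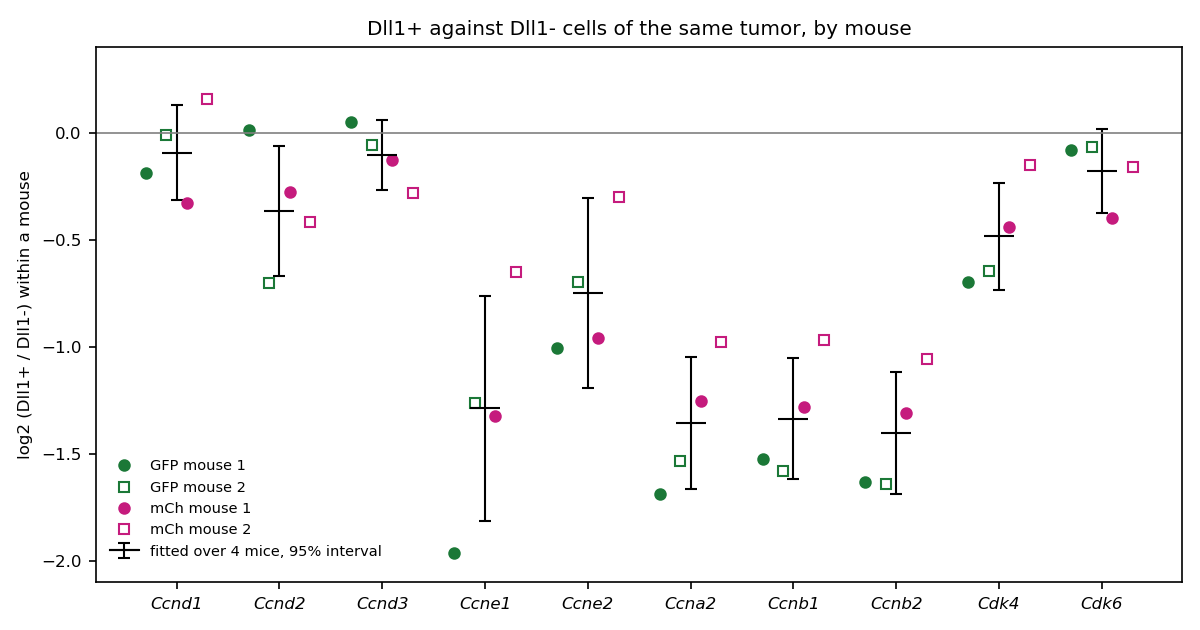
Log2 ratio of Dll1+ to Dll1- TMM-scaled CPM within each mouse (1 point per mouse, 4 per gene), with the value fitted over the 4 mice and its 95% interval in black. The 3 late cyclins lie between -0.97 and -1.69 in every mouse, while the points of Ccnd1, Ccnd2 and Ccnd3 lie on both sides of 0.

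The same effect was then read separately in each reporter line, from a single fit with the mouse as a block; both readings share the libraries of the combined comparison. In GFP mice 5 genes passed, all lower in Dll1+ cells (4.84% of all tested genes were called lower): Ccne1, Ccna2, Ccnb1, Ccnb2 and Cdk4. The 3 late cyclins fell 2.94-fold to 3.12-fold there, Ccne1 fell 3.06-fold (edgeR adjusted p = 0.0184) and Cdk4 1.59-fold (edgeR adjusted p = 0.0136). Ccne2 had a log2 fold change of -0.86 and did not pass (edgeR adjusted p = 0.0956). In mCh mice 4 genes passed, all lower (6.25% of all tested genes): the late cyclins fell 2.17-fold to 2.28-fold and Ccne1 2.00-fold (edgeR adjusted p = 0.0473). Cdk4, at a log2 fold change of -0.30, and Ccne2, at -0.65, did not pass in mCh mice (edgeR adjusted p = 0.102 and 0.14), although DESeq2 called Cdk4 (adjusted p = 0.0465). Fitted on the mCh libraries alone, edgeR called none of the 10 genes in mCh mice, with 6 at an unadjusted p under 0.05. The Ccne1 call in mCh mice was lost whichever of the 4 mice was left out (edgeR adjusted p = 0.0509 to 0.244).

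The difference between the reporter effects was tested directly. The mCh effect minus the GFP effect was 0.49 for Ccna2 (95% interval 0.15 to 0.84), 0.46 for Ccnb2 (0.10 to 0.82), 0.43 for Ccnb1 (0.05 to 0.81) and 0.37 for Cdk4 (0.04 to 0.71). The edgeR adjusted p values were 0.247 to 0.336, so none of the 10 genes passed, and 0.071% of all tested genes did. An unadjusted edgeR p under 0.05 was reached by these 4 genes and by 2420 of all 18322 tested genes. DESeq2 called none of the 10 genes after adjustment. Without mCh mouse 2 the differences were 0.32, 0.29, 0.23 and 0.19, and without mCh mouse 1 they were 0.60, 0.55, 0.56 and 0.49. Leaving out GFP mouse 1 gave differences of 0.42, 0.46, 0.45 and 0.35. Leaving out GFP mouse 2 gave differences of 0.57, 0.45, 0.40 and 0.40. With size factors from 10 epithelial markers alone, an alternative chosen after seeing the data that moved the median of all genes from 0.05 to -0.26, they were 0.19, 0.15, 0.13 and 0.07. Each reporter had 2 mice, and leaving out either GFP mouse left a lone pair there, so effect sizes are given for GFP mice. The GFP effect on Ccna2 was then -1.53 without GFP mouse 1 and -1.69 without GFP mouse 2. For Cdk4 it was -0.64 and -0.70.

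RNA of other cell types moved with the sort in the mCh mice. The summed CPM of 10 fibroblast markers was 7645 and 21854 in Dll1- and 3067 and 3317 in Dll1+ cells of mCh mice, and that of 12 immune markers was 550 and 572 against 245 and 255. Of 11 tested immune markers 10 were called lower in Dll1+ cells of mCh mice, as were 5 of 10 endothelial, 5 of 10 fibroblast and 8 of 10 pericyte and smooth muscle markers. In GFP mice the fibroblast sum was 1090 and 1236 in Dll1- and 1001 and 1149 in Dll1+ cells, and the immune sum was 115 and 88.9 against 118 and 101. Ccne1, Ccna2, Ccnb1, Ccnb2 and Cdk4 were called lower in GFP mice, and Ccne1, Ccna2, Ccnb1 and Ccnb2 in mCh mice. The part of RNA from other cell types in these falls was not tested. The summed CPM of 10 basal epithelial markers was higher in Dll1+ cells of every mouse, at 158 to 673 CPM in Dll1- and 253 to 1558 CPM in Dll1+ cells, with 5 of the 10 called higher over the 4 mice. Its part in the result was not tested. With the size factors from epithelial markers, 6 genes were called in the combined comparison, and 6 in place of 4 in mCh mice. The genes gained in mCh mice were Cdk4 (log2 fold change -0.52, edgeR adjusted p = 0.0231) and Cdk6 (-0.50, edgeR adjusted p = 0.034), under a scaling that moved the median of all genes there from 0.02 to -0.20.

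The second comparison set mCh against GFP mice within each sort. Here the reporter line, the allele design, the mice and any difference in handling cannot be told apart, and the readings in Dll1- and Dll1+ cells share the same 4 mice. Ccnd2, Ccne1, Ccna2, Ccnb1, Ccnb2 and Cdk4 were higher in mCh mice in both sorts, and Cdk6 was lower in Dll1+ cells. In Dll1- cells 6 of 10 genes were called higher, against 18.7% of all tested genes, and none lower. In Dll1+ cells 6 were called higher, against 15.2%, and 1 lower, against 15.4%. The median log2 difference over the 10 genes was 0.60 in Dll1- and 0.99 in Dll1+ cells, beside 0.01 and 0.07 over all tested genes.

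Ccnd2 had the largest difference. All 4 mCh libraries, at 16.7 to 34.4 CPM, were above all 4 GFP libraries, at 2.59 to 7.76 CPM. The level was 5.26-fold higher in mCh mice in Dll1- cells (log2 2.39, SE 0.57, edgeR adjusted p = 0.0191) and 5.68-fold higher in Dll1+ cells (log2 2.51, SE 0.58, edgeR adjusted p = 0.021). The log2 difference in Dll1- cells was 1.80 without GFP mouse 1 and 3.37 without GFP mouse 2. The Ccnd2 call was lost in both sorts without either of these, without mCh mouse 2 (edgeR adjusted p = 0.0799 and 0.0742) and with no filter on low counts (0.0993 and 0.102). The spread within a reporter was wide, with 76 counts in GFP mouse 1 against 224 in GFP mouse 2 in Dll1- libraries of similar depth. Markers of stromal cells moved the same way between reporters: all 10 fibroblast, all 10 endothelial and all 11 immune markers tested and 8 of 10 pericyte and smooth muscle markers were higher in mCh Dll1- cells. Fibroblast sums were 1001 to 1236 CPM in GFP and 3067 to 21854 CPM in mCh libraries, and pericyte and smooth muscle sums 235 to 285 against 269 to 958 CPM. Between the sorts of the mCh mice the fibroblast sum fell from 21854 to 3317 CPM in mouse 2 while Ccnd2 was at 34.4 and 25.7 CPM, and the part of stromal RNA in the Ccnd2 difference was not tested.

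**Figure D3:**
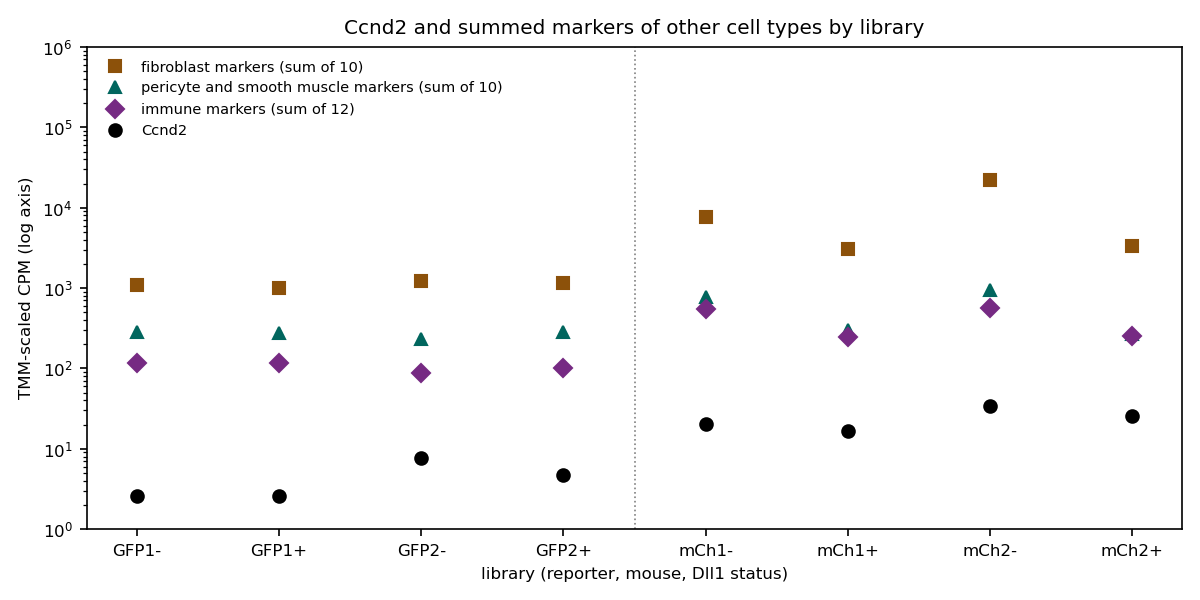
TMM-scaled CPM (log axis) of Ccnd2 and of the summed fibroblast, pericyte and smooth muscle, and immune markers in each of the 8 libraries, GFP mice left and mCh mice right of the dotted line. Ccnd2 lies at 16.7 to 34.4 CPM in the mCh and 2.59 to 7.76 CPM in the GFP libraries, and the fibroblast and immune sums are also higher in the mCh libraries.

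The cycle-phase cyclins differed between reporters by less than Ccnd2. Ccnb2 was 2.28-fold higher in mCh Dll1- cells (edgeR adjusted p = 0.0038) and 3.09-fold higher in mCh Dll1+ cells (edgeR adjusted p = 0.0037). Ccnb1, the other B-type cyclin, was 1.57-fold and 2.10-fold higher (edgeR adjusted p = 0.012 and 0.00496). The log2 ratio of Ccnb2 to Ccnb1 CPM lay between -0.44 and -0.29 in the 4 GFP libraries. In the 4 mCh libraries it lay between 0.05 and 0.29, so the reporter lines did not overlap in this ratio, while the sorts did. The ratios of Ccnd2 to Ccnd1, Ccne1 to Ccne2 and Cdk6 to Cdk4 also separated the reporter lines. Those of Ccnd3 to Ccnd1 and Ccnb1 to Ccnd1 did not. Among single tested genes, 43.4% separated the GFP and mCh libraries, and such a share was not computed for ratios. Per kilobase of exon, Ccnb2 was above Ccnb1 in every library. Ccna2 was 1.61-fold and 2.24-fold higher in mCh mice, and Ccne1 2.11-fold and 3.21-fold higher, in Dll1- and Dll1+ cells. Fitted on the Dll1- libraries alone, Ccna2 did not pass (edgeR adjusted p = 0.0529).

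The kinases went opposite ways between the reporter lines. Cdk4 was 1.46-fold higher in mCh Dll1- cells (edgeR adjusted p = 0.0374) and 1.88-fold higher in mCh Dll1+ cells (edgeR adjusted p = 0.00995). Cdk6 was lower in mCh mice by 0.42 on the log2 scale in Dll1- cells, which did not pass (edgeR adjusted p = 0.0934), and by 0.61 in Dll1+ cells, a 1.52-fold lower level (edgeR adjusted p = 0.0354). With each sort fitted alone, Cdk4 in Dll1- cells and Cdk6 in Dll1+ cells did not pass (edgeR adjusted p = 0.09 and 0.0515). Ccnd2, Cdk4 and Cdk6 were the 3 of the 10 genes whose GFP and mCh libraries did not overlap, against 43.4% of all tested genes, so this count is below the background. Ccnd1 and Ccnd3 had log2 differences of 0.17 and 0.45 in Dll1- cells and 0.21 and 0.26 in Dll1+ cells, and Ccne2 of 0.29 and 0.50, and none of the 3 passed.

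**Figure D4:**
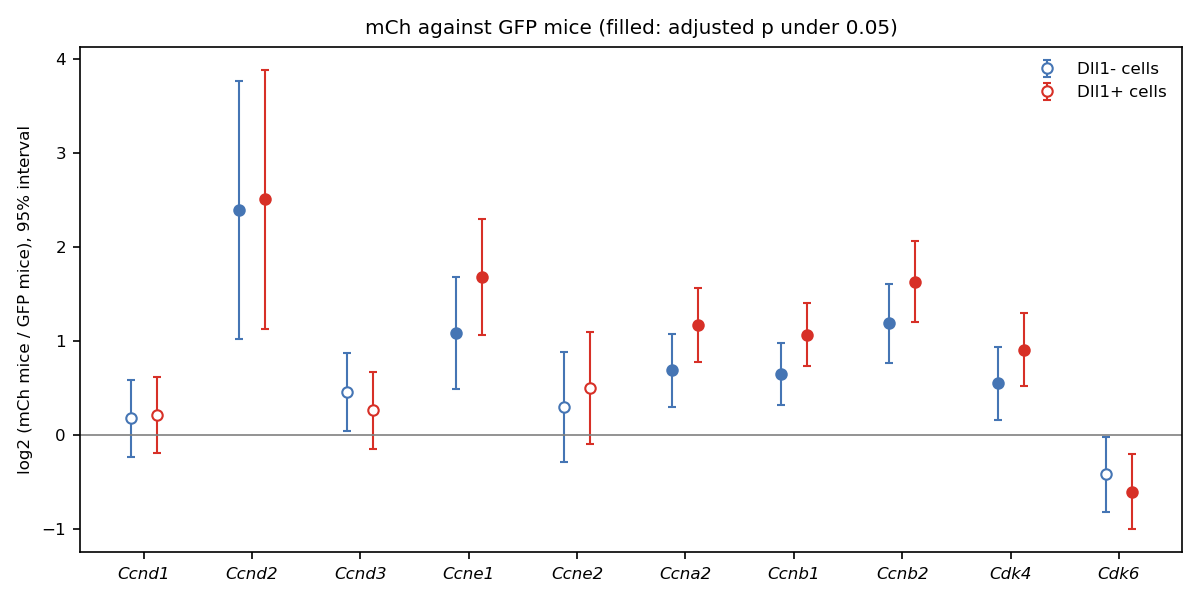
Log2 ratio of mCh to GFP mice fitted in Dll1- (blue) and Dll1+ cells (red), with 95% intervals and filled points for an adjusted p under 0.05. Ccnd2 stands highest at 2.39 and 2.51 with the widest intervals, and Cdk6 is the only gene below 0 in both sorts.

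Leaving out either GFP mouse left a lone GFP mouse in each sort, so effect sizes are given here, and every gene kept its direction. Ccnb2 was then higher in mCh Dll1- cells by 1.20 without GFP mouse 1 and 1.15 without GFP mouse 2 on the log2 scale. In Dll1+ cells these values were 1.64 and 1.58. With the size factors from epithelial markers, 3 genes were called in Dll1- cells (Ccnd2, Ccne1 and Ccnb2) and 4 in Dll1+ cells (those 3 and Cdk6).

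The regulators around these genes were read from lists, given as counts over the 4 mice beside the median log2 fold change of -0.001 of all tested genes. Of 15 other cyclins tested, 2 were higher and 1 lower in Dll1+ cells (median 0.19): Ccnf, which is an F-box protein of the G2 phase, was lower (-0.95), and Ccnl1 (0.48) and Ccny (0.24) were higher. Of 16 other cyclin-dependent kinases, Cdk1, the partner of the B-type cyclins, fell (-1.15), as did Cdk18 (-0.64), and Cdk19 rose (0.37). Cdk2, the partner of cyclins E and A, was at -0.23 (edgeR adjusted p = 0.0697), named after its value was seen. Of 7 inhibitors of these kinases (median 0.19), only Cdkn2c, an inhibitor of CDK4 and CDK6, passed, and it was lower (-0.60). Cdkn1b was at 0.29 (edgeR adjusted p = 0.0613) and Cdkn2d at -0.31 (edgeR adjusted p = 0.184). Cdkn1a at 0.62 and Cdkn2b at 0.54 did not pass either (edgeR adjusted p = 0.186 and 0.187), both named after their values were seen.

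The axis between the D-type cyclins and the cycle genes changed in both directions. Of 13 genes of the RB and E2F families 6 were lower and 2 higher (median -0.28): Rb1, which encodes the target of CDK4 and CDK6, was higher (0.96), the E2F partner Tfdp1 was lower (-0.67) and E2f8 was lower (-1.35). The other gene that rose was E2f5 (0.38), named after its value was seen. Among 5 genes that set the activating or inhibitory phosphorylation of the kinases, the phosphatases Cdc25b (-0.92), Cdc25a (-0.71) and Cdc25c (-1.11) and the kinase Pkmyt1 (-0.43) were lower, and Wee1 was higher (0.44), the last pair named after their values were seen. Of 11 ubiquitin ligase subunits that act on cyclins, Cdc20 (-1.33), Skp2 (-1.03) and Fzr1 (-0.30) were lower and none was higher. Of 7 genes of the complexes that switch G2/M promoters, Mybl2 (-1.11) and Foxm1 (-1.10) were lower, and the remaining 5, with Rbbp4 at -0.25, did not pass.

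Genes of S phase and mitosis, the phases that the later cyclins drive, were lower in Dll1+ cells. Of 16 S phase genes 15 were lower and none higher (median -0.86), among them Rrm2 (-1.52) and Rrm1 (-0.79), the subunits of ribonucleotide reductase, and Mcm6 (-0.97) of the replicative helicase. The exception was Slbp at -0.11. All 16 mitosis genes tested were lower (median -1.12), among them the kinases Plk1 (-1.45), Aurka (-1.14) and Aurkb (-0.97). Between reporters, 11 of the 16 S phase genes in either sort, and 10 of the 16 mitosis genes in Dll1- and 14 in Dll1+ cells, were higher in mCh mice, and none was lower.

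**Figure D5:**
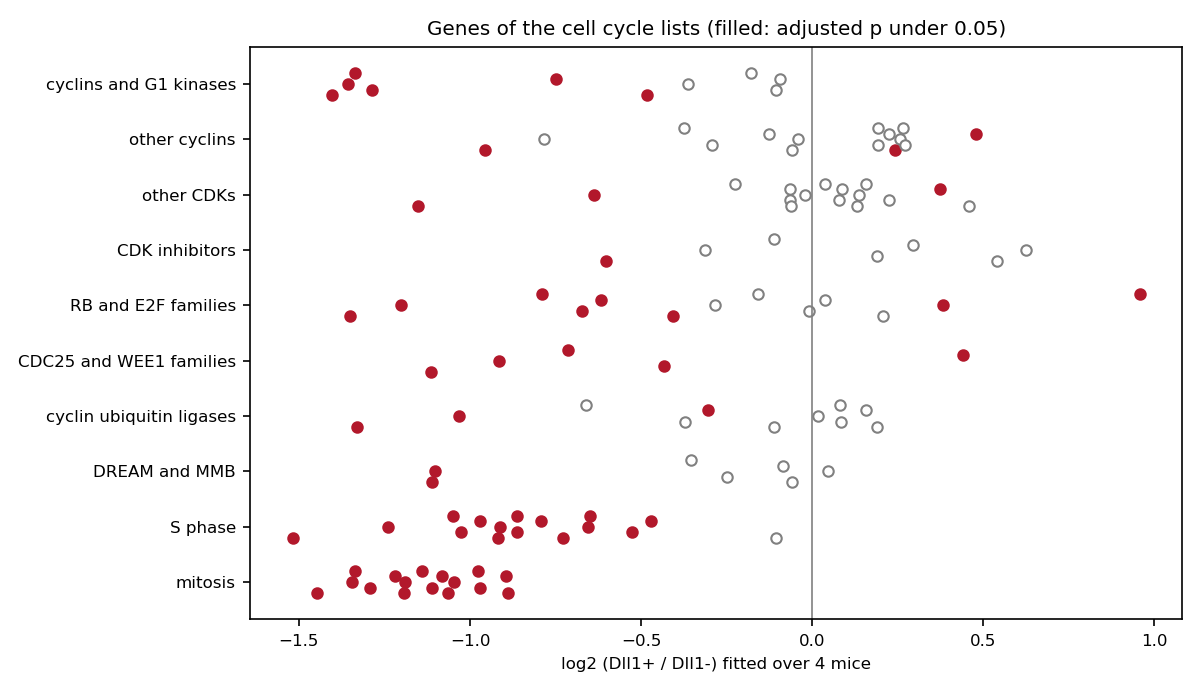
Log2 fold change of Dll1+ against Dll1- cells fitted over 4 mice (horizontal axis) for each tested gene of 10 lists (rows), filled where the adjusted p was under 0.05; vertical position within a row carries no value. The S phase and mitosis genes all lie left of 0, while the other cyclins, kinases and inhibitors lie on both sides.

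The genes whose log2 CPM followed 3 of the members most closely over the 8 libraries were looked up as a description, since the points share libraries, mice and reporters. For Ccnb1 they were Bub1b (r = 0.999), Ccna2 (0.996), Cenpa (0.996), Cep55 (0.995) and Shcbp1 (0.994), and Ccna2 is itself a member. For Ccnd1 they were Utp11 (0.969), Rpl12 (0.959), Rpia (0.953), Nop14 (0.946) and Ppm1d (0.944). For Ccnd2 they were Obsl1 (0.990), Sema3d (0.985), Mul1 (0.981), Git1 (0.981) and Aqp2 (0.979). Among the members, r between Ccnb1 and Ccna2, Ccnb2, Ccne1, Ccne2 and Cdk4 lay between 0.904 and 0.996, against 0.48 with Ccnd1 and -0.26 with Cdk6.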

How the data were processed

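RNA from the 8 libraries was mapped by the authors with salmon against GENCODE M20 transcripts (GRCm38.p6) and summed to genes with tximport, and the authors deposited estimated counts, whole numbers with no scaling applied. The salmon version and strand setting are not given in the sources used here, so reads of Ccnd1, Ccnd3, Ccne2, Ccna2 and Cdk4 and of genes overlapping them on the opposite strand may not be told apart, although the library kit keeps strand. Library totals were 27301396 to 123907626 counts, and floors of 3 counts cover counting error only.

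Genes were tested with edgeR 4.0.16 (R 4.3.3) with TMM scaling, filterByExpr on Dll1 status and a robust quasi-likelihood F test, with Benjamini-Hochberg adjustment over 18322 genes and a threshold of 0.05. The models held mouse and Dll1 status, or mouse and a Dll1 effect per reporter, or the 4 groups of reporter and sort. Standard errors are the log2 fold change over the root of F. Log2 CPM used a prior count of 2. Pairs come from the mouse named in the labels; the correlation of same-mouse deviations was -0.047 in GFP and 0.554 in mCh mice. All 10 members were named, with the 3 genes of lowest p of each list and the 5 genes of highest correlation with Ccnd1, Ccnd2 and Ccnb1. Members, lists and tests were chosen with earlier results of these data known. Alternatives were RLE scaling, DESeq2 1.42.0, limma 3.58.1 voom, other count filters, no block, separate fits and leaving out each mouse. Scripts were tested on simulated counts. With the mouse as a block, p-values measure the spread of the within-mouse differences. The comparison of reporters held no mouse term and took both sorts of a mouse as independent. Its p-values measure the spread between libraries of the 2 mice per reporter. Promoters are from RefSeq, and a search of the proteins was not run.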

Additional observations from a re-analysis of the deposited data

Results flagged for a closer look

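Over the 30 sets of 4 values examined (each gene in Dll1- cells, in Dll1+ cells and as the within-mouse difference), 1 library lay apart by Dixon's ratio at the 95% level: Ccnd3 in Dll1+ cells of mCh mouse 1, at 98.4 CPM against 69.0 to 72.2 CPM in the other 3 Dll1+ libraries, with a ratio of 0.873 on the log2 scale. Chance flags about 1 in 20 such sets. No gene moved in opposite directions in both mice of each reporter.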

How the results depend on the processing

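In the combined comparison 6 genes were called; the count was 0 with no replicate block and no reporter term (4 at an unadjusted edgeR p under 0.05), 7 by DESeq2, and 3 to 6 with a mouse left out. In GFP mice (5) leaving out a mouse gave 0 to 5, and in mCh mice (4) it gave 3, while the mCh libraries fitted alone gave 0 (6 at an unadjusted p under 0.05) and no call over all genes. Between reporters, leaving out a mouse gave 0 to 7 in Dll1- (6) and 0 to 8 in Dll1+ cells (7), and epithelial size factors gave 3 and 4. The difference between the reporter effects gave 0 under each of 10 alternatives, with 0 to 5 at an unadjusted p under 0.05. With each sort fitted alone, 4 genes were called between reporters in Dll1- and 6 in Dll1+ cells. By voom with the mouse as a random block, 6 and 7 were called. Lone mice were assumed to vary like the other groups. All genes called ranged from 0 to 4362 (combined, 2568), 2 to 3001 (GFP, 1673), 0 to 3637 (mCh, 2154), 0 to 1143 (difference, 13), 0 to 7828 (Dll1-, 6701) and 0 to 6897 (Dll1+, 5612). The combined count of all genes was 0 with no replicate block and 1352 with the reporter kept. Of the gene values under the alternatives, 538 kept direction and side of the threshold, 76 lost and 10 gained the call, and 26 changed sign. Each sign change was of a value that had not passed: in GFP mice Ccnd3 (-0.0026) became 0.013 with RLE, 0.013 by DESeq2, 0.0049 without a filter, 0.0021 with at least 10 counts, 0.0059 fitted alone and 0.079 with epithelial factors (-0.051 to 0.053 without a mouse), Ccnd2 was -0.70 to 0.014 without a mouse and Cdk6 0.0055 with epithelial factors; in mCh mice Ccnd1 was -0.36 to 0.14 without a mouse. For the difference, Ccnd1 (0.01) became -0.017 with RLE, -0.017 by DESeq2, -0.015 without a filter and -0.29 with epithelial factors (-0.27 to 0.22 without a mouse), Ccnd2 -0.25 (-0.36 to 0.35) and Ccne2 -0.087 (-0.15 to 0.52). Between reporters in Dll1+ cells Ccnd1 became -0.12 with epithelial factors (-0.074 to 0.41 without a mouse) and Ccnd3 was -0.031 to 0.48. The epithelial factors moved the median of all genes to -0.20 (mCh), -0.26 (difference) and -0.21 (Dll1+ between reporters). The search of protein sequences was not run. The causes of these shifts were not tested. The 2 mice per reporter and 55 counts of Ccne2 at the lowest limit what can be detected.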
